A study of Mus musculus with 11 samples.

Results

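The GIMAP family (GTPases of the immunity-associated protein family) was followed in RNA sequencing libraries made from CD4+ T cells of the kidney. It was taken as the rows of the deposited table that carry the symbols *Gimap1*, *Gimap3*, *Gimap4*, *Gimap5*, *Gimap6*, *Gimap7*, *Gimap8* and *Gimap9*, which are 8 of its 35814 gene symbols and all the symbols in it that begin with Gimap. All 8 members passed the filter on low counts in each of the 3 comparisons between groups. The 11 libraries came from kidneys of young adult male C57BL/6 mice on day 2 after ischemia–reperfusion injury (IRI), and no library of an uninjured kidney was analysed here. The 3 libraries labelled CD4cre, whose genotype field reads WT, came from control mice that express Cre recombinase under the CD4 promoter and have no floxed kinase gene. The 5 libraries labelled CD4IKK1 (IKK1 knockout) came from mice that carry this Cre with a floxed *Chuk* gene, which encodes IKK1, and the 3 libraries labelled CD4NIK (NIK knockout) from mice that carry it with a floxed *Map3k14* gene, which encodes NIK. The CD4 promoter is active in the thymus before CD4+ and CD8+ T cells part, so that this Cre is not restricted to mature CD4+ T cells. The cells were enriched with magnetic beads and sorted, and the RNA of few cells was amplified before sequencing, with 1 library per biological replicate of the labels.

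GIMAP proteins are small GTP-binding proteins of lymphocytes that sit on the membranes of lysosomes, mitochondria, the endoplasmic reticulum and the Golgi apparatus. They are known for keeping resting T cells alive and quiescent, and rodents that lack *Gimap5* lose most of their peripheral T cells. Several members are switched on as thymocytes mature. Some endothelial cells also express members of the family.

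The libraries held 15751468 to 25736892 estimated counts, at which 3 counts correspond to 0.115 to 0.211 CPM (counts scaled to a common library size with edgeR's TMM factors). Such floors and the intervals below cover counting error only, because the reads were amplified and carry no molecular identifiers. Before any comparison, 2 libraries stood apart. The summed counts of *Trac*, *Trbc1* and *Trbc2*, which encode the constant regions of the T cell receptor and are called receptor counts here, were 41 and 868 in CD4IKK1 replicates 1 and 2, against 5277 to 11413 in the other 3 CD4IKK1 libraries, 12558 to 35820 in CD4cre and 60124 to 111648 in CD4NIK. Counts of called genes and tests that rest on these libraries were also made without them. *Chuk*, the gene targeted in CD4IKK1 mice, had 325 to 683 counts in CD4cre and 258 to 588 counts in the libraries labelled CD4IKK1 (log2 fold change −0.11, standard error 0.31, FDR 0.921 with edgeR). *Map3k14*, the gene targeted in CD4NIK mice, had 294 to 506 counts in CD4cre and 232 to 626 counts in the libraries labelled CD4NIK (log2 fold change 0.30, standard error 0.36, FDR 0.575 with edgeR). *Map3k14* was lower in all libraries labelled CD4IKK1 than in all CD4cre libraries, at 29 to 186 counts (log2 fold change −1.58, FDR 0.148 with edgeR, and called by DESeq2). Neither targeted transcript thus separated its group in the direction of the label, and the counts are summed over all exons and do not resolve the floxed ones. *Cd4* itself was detected in all 11 libraries, at 51.1 to 78.5 CPM in CD4cre, 2.05 to 69.1 CPM in CD4IKK1 and 315 to 382 CPM in CD4NIK.

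The 8 genes lie side by side on chromosome 6 of the mouse assembly GRCm39, within chr6:48624143-48747826, a stretch of 123.684 kb. From low to high coordinates they are *Gimap8* (chr6:48624143-48637826), *Gimap9* (chr6:48653049-48656137), *Gimap4* (chr6:48661479-48670389), *Gimap6* (chr6:48678349-48685339), *Gimap7* (chr6:48695555-48701570), *Gimap1* (chr6:48715947-48720843), *Gimap5* (chr6:48723104-48731144) and *Gimap3* (chr6:48741395-48747826). *Gimap6* and *Gimap3* are on the minus strand and the other 6 on the plus strand. The canonical transcripts have 2 to 6 exons and are 1269 bases (*Gimap7*) to 3696 bases (*Gimap8*) long. *Gimap3* and *Gimap5* are near copies over part of their length, with 9.32% and 7.63% of their 31-base words found in another member, so that kallisto could divide reads between them, whereas the other 6 members share none. A further gene model, *Gm28053*, overlaps *Gimap7*, *Gimap1* and *Gimap5*.

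Since the members lie together, their upstream sequences were searched for the letters of factors that act in T cells, with both strands read. RefSeq's promoter table for GRCm39 held all 8 members, and the 250 bases before each gene's start were used. The core letters of RUNX factors (TGTGGT) were found upstream of *Gimap4*, *Gimap7* and *Gimap1*, 3 of the 8 members, against 13.0% of 21757 promoters. In each of these the match lay on the other strand, where it reads ACCACA in the printed sequence. The nearest match ended 107 bases from the start in *Gimap4*, 74 bases in *Gimap7* and 56 bases in *Gimap1*, which held 2 matches. The ETS letters (GGAAGT) were found upstream of *Gimap5* alone among the members, with 2 matches of which the nearest ended 12 bases from the start, against 19.0% of all promoters. The FOXO letters (TGTTTAC) were found upstream of *Gimap3* (2.72% of all promoters), and neither the TCF letters (CTTTGA, 14.1%) nor the kappaB motif (7.63%) had a match in any member. A match is a description of the letters in this window and not a bound site. The 4 sequences that hold RUNX or ETS letters are shown so that the matches can be seen in place. Their relation to the contrasts described below was not tested. All 4 are on the plus strand and are written 5′ to 3′, with the matched letters in capitals.
Gimap4, chr6:48661229-48661478: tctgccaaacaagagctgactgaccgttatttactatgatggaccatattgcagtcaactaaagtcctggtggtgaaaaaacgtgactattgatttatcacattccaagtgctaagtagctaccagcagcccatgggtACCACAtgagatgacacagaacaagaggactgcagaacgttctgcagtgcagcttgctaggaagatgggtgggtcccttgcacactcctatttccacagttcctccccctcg
Gimap7, chr6:48695305-48695554: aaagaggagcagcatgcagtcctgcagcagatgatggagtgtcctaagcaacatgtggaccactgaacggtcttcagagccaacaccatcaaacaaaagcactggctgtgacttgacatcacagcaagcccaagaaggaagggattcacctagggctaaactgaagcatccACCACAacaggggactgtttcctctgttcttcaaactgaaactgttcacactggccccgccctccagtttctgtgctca
Gimap1, chr6:48715697-48715946: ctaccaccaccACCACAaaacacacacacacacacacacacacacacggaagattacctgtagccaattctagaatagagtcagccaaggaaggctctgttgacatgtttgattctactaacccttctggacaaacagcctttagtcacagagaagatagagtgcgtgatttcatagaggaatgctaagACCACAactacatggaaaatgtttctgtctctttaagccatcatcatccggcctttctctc
Gimap5, chr6:48722854-48723103: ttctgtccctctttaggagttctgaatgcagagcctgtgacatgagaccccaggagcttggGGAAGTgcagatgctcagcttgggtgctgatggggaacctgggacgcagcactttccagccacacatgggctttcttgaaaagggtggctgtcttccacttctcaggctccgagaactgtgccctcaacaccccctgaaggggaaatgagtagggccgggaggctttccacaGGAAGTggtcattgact

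The family as a whole was high in the CD4NIK libraries, intermediate in CD4cre and low in the CD4IKK1 libraries. Summed over the 8 members there were 1866, 1172 and 674 CPM in CD4cre replicates 1 to 3, 8.45, 34.5, 188, 255 and 353 CPM in CD4IKK1 replicates 1 to 5 and 4758, 6048 and 9144 CPM in CD4NIK replicates 1 to 3. The ranges of the 3 groups did not overlap. The family took 0.0708% to 0.188% of all counts in CD4cre, 0.000823% to 0.0371% in CD4IKK1 and 0.456% to 0.823% in CD4NIK. In bulk RNA, fewer cells of a type and less RNA of a gene per cell cannot be told apart, and the receptor transcripts followed the same order of groups, which is why each member is also given relative to them.

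**Figure D1:**
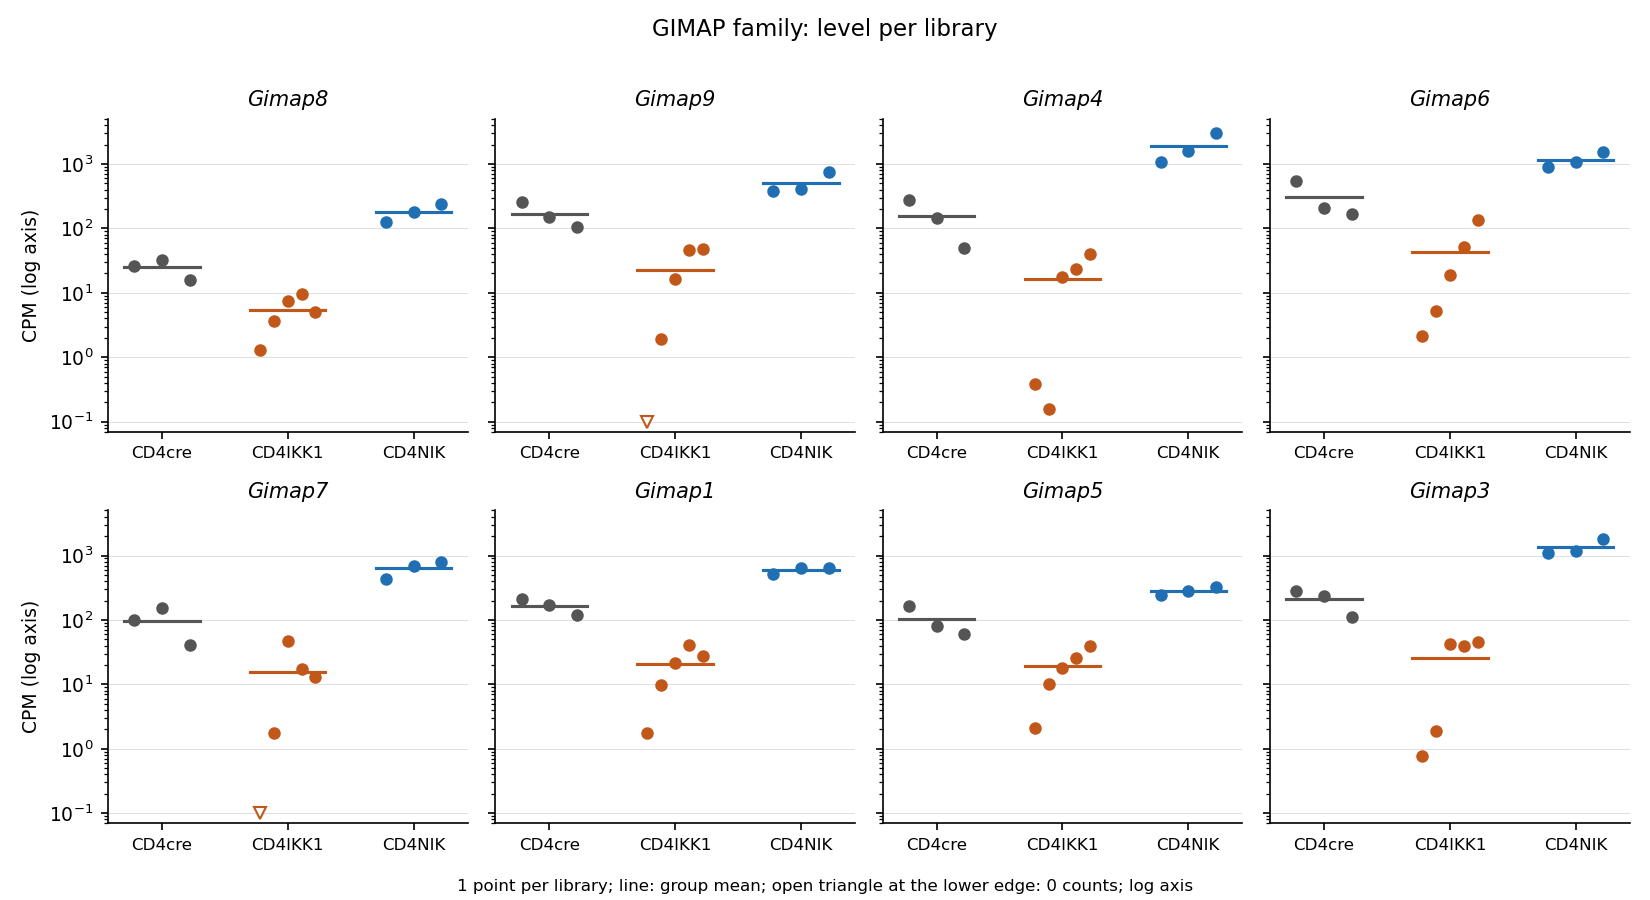
CPM of the 8 GIMAP members on a log axis, 1 panel per gene in chromosome order, with 1 point per library, the group mean as a line and an open triangle for a library with 0 counts. The CD4NIK libraries lie above all CD4cre libraries in all 8 panels, and *Gimap7* and *Gimap9* had 0 counts in CD4IKK1 replicate 1.

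*Gimap5* and *Gimap1* are the members known for the survival of mature lymphocytes. *Gimap5* had 166, 79.4 and 61.2 CPM in CD4cre replicates 1 to 3, 2.11, 10.2, 18.0, 25.9 and 39.5 CPM in CD4IKK1 replicates 1 to 5 and 246, 281 and 323 CPM in CD4NIK replicates 1 to 3. All CD4IKK1 libraries were below and all CD4NIK libraries above the CD4cre libraries. *Gimap5* rose least of the 8 members in CD4NIK against CD4cre, 2.75-fold (log2 fold change 1.46, standard error 0.35, FDR 0.0253 with edgeR). *Gimap1* had 209.7, 169 and 121 CPM in CD4cre, 1.73, 9.69, 21.2, 41.5 and 27.7 CPM in CD4IKK1 and 509, 637 and 633 CPM in CD4NIK, in the order of the replicates. These ranges did not overlap either, and the CD4NIK libraries lay close together. *Gimap1* rose 3.51-fold in CD4NIK (log2 fold change 1.81, standard error 0.23, FDR 0.00422 with edgeR).

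*Gimap3* and *Gimap4* encode proteins linked to T cell death, and *Gimap3* is known from the outer mitochondrial membrane and as a partner of Bcl-2 family proteins. *Gimap4*, whose loss alters how T cells complete apoptosis, had 273, 143 and 49.4 CPM in CD4cre, 0.384, 0.157, 17.8, 23.5 and 40.1 CPM in CD4IKK1 and 1067, 1615 and 3035 CPM in CD4NIK. CD4IKK1 replicates 1 and 2 held 6 and 3 counts of it, close to the floor, while CD4NIK replicate 3 was well above the other libraries of its group. *Gimap4* rose most of the 8 members, 12.2-fold in CD4NIK against CD4cre (log2 fold change 3.61, standard error 0.63, FDR 0.0108 with edgeR). Without CD4cre replicate 1 the log2 fold change was 4.28. *Gimap3* had 282, 238 and 111 CPM in CD4cre, 0.768, 1.89, 42.1, 39.2 and 44.8 CPM in CD4IKK1 and 1089, 1192 and 1816 CPM in CD4NIK. CD4IKK1 replicates 3 to 5 were nearly level with each other, and no library of a group reached the range of another group. *Gimap3* rose 6.42-fold in CD4NIK (log2 fold change 2.68, standard error 0.37, FDR 0.00490 with edgeR), a value that the reads shared with *Gimap5* make less certain.

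*Gimap6* and *Gimap7* have biochemical roles of their own: GIMAP6 binds the autophagy protein GABARAPL2, and GIMAP7 stimulates the hydrolysis of GTP by other family members. *Gimap6* had 554, 210.2 and 169.8 CPM in CD4cre, 2.18, 5.24, 18.8, 51.4 and 135 CPM in CD4IKK1 and 901, 1062 and 1554 CPM in CD4NIK. CD4cre replicate 1 and CD4IKK1 replicate 5 were well above the other libraries of their groups, but the groups did not overlap. *Gimap6* rose 3.73-fold in CD4NIK (log2 fold change 1.90, standard error 0.44, FDR 0.0245 with edgeR). Without CD4cre replicate 1 its log2 fold change was 2.60. *Gimap7* had 101, 151 and 40.9 CPM in CD4cre, 0, 1.73, 46.6, 17.2 and 13.0 CPM in CD4IKK1 and 437, 677 and 798 CPM in CD4NIK. The 0 counts in CD4IKK1 replicate 1 allow up to 0.192 CPM. CD4IKK1 replicate 3 reached the range of the CD4cre libraries, which made *Gimap7* the member whose CD4IKK1 and CD4cre libraries overlapped. *Gimap7* rose 6.43-fold in CD4NIK (log2 fold change 2.68, standard error 0.45, FDR 0.00969 with edgeR).

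*Gimap8*, which encodes a protein with several GTP-binding domains in the same chain, and *Gimap9* lie next to each other at the start of the cluster. *Gimap8* had 26.4, 32.8 and 15.8 CPM in CD4cre, 1.28, 3.72, 7.54, 9.68 and 5.13 CPM in CD4IKK1 and 127, 180.0 and 240.0 CPM in CD4NIK. The groups did not overlap. *Gimap8* rose 7.19-fold in CD4NIK (log2 fold change 2.85, standard error 0.34, FDR 0.00339 with edgeR), the smallest FDR of the 8 members. *Gimap9* had 254, 148 and 105 CPM in CD4cre, 0, 1.94, 16.2, 46.8 and 48.1 CPM in CD4IKK1 and 382, 403 and 745 CPM in CD4NIK. All CD4IKK1 libraries were below the lowest CD4cre library, and the 0 counts in CD4IKK1 replicate 1 again allow up to 0.192 CPM. *Gimap9* rose 2.99-fold in CD4NIK (log2 fold change 1.58, standard error 0.38, FDR 0.0251 with edgeR).

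Per kb of canonical transcript, which allows genes to be compared, *Gimap6* had the highest mean level in CD4cre at 162 ± 110.0 CPM per kb (SD, n = 3), followed by *Gimap9* (121 ± 55.0), *Gimap1* (101 ± 26.8), *Gimap3* (96.2 ± 40.5), *Gimap4* (84.3 ± 61.0), *Gimap7* (77.1 ± 43.6), *Gimap5* (51.5 ± 28.1) and *Gimap8* (6.77 ± 2.33). Neighbours in this order overlapped in their libraries' ranges except *Gimap5* and *Gimap8*. In CD4NIK the highest mean level was that of *Gimap4* at 1035 ± 552 CPM per kb (SD, n = 3), followed by *Gimap3* (624 ± 180), *Gimap6* (611 ± 177), *Gimap7* (502 ± 145), *Gimap9* (365 ± 146), *Gimap1* (359 ± 43.9), *Gimap5* (143 ± 19.4) and *Gimap8* (49.3 ± 15.3). Here the ranges of *Gimap1* and *Gimap5* and those of *Gimap5* and *Gimap8* did not overlap, and the other neighbours did. *Gimap4* thus stood behind 4 members in CD4cre and ahead of all in CD4NIK. In CD4IKK1 the means ran from 1.48 CPM per kb for *Gimap8* to 22.2 CPM per kb for *Gimap6*, with *Gimap4* second to last at 8.89 CPM per kb, and all neighbours overlapped.

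The comparison of the libraries labelled CD4IKK1 with CD4cre was designed to ask what a loss of IKK1 in T cells does after IRI, although *Chuk* did not differ detectably between them. The values of all 8 members were lower in CD4IKK1, with log2 fold changes from −3.24 (*Gimap4*) to −2.19 (*Gimap8*) and a median of −2.88, beside a median of 0.02 over the 15653 genes tested. The other members lay at −3.03 (*Gimap1*), −3.03 (*Gimap3*), −2.90 (*Gimap9*), −2.87 (*Gimap6*), −2.64 (*Gimap7*) and −2.41 (*Gimap5*). None passed edgeR's threshold (FDR below 0.05 and more than 2-fold), which 0% of all genes passed. The FDR was lowest for *Gimap8* (0.105, standard error 0.54) and *Gimap1* (0.158, standard error 0.81) and highest for *Gimap7* (0.407, standard error 1.39). At an unadjusted p under 0.05 there were 4 lower members (*Gimap1*, *Gimap3*, *Gimap5* and *Gimap8*), against 8.91% of genes. In 7 of 8 members all CD4IKK1 libraries were below all CD4cre libraries, against 8.44% of genes. DESeq2, run on the same libraries, called *Gimap1*, *Gimap5* and *Gimap8* lower (2.16% of 23700 genes). Without CD4IKK1 replicates 1 and 2, a choice made after seeing the data, edgeR called *Gimap1* (log2 fold change −2.47) and *Gimap3* (−2.33) lower (0.239% of genes), and DESeq2 called *Gimap1*, *Gimap3*, *Gimap4*, *Gimap5*, *Gimap8* and *Gimap9* (2.35% of genes).

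The comparison of the libraries labelled CD4NIK with CD4cre was designed to ask the same of NIK, with *Map3k14* likewise not lower. All 8 members passed edgeR's threshold as higher in CD4NIK, against 10.4% of 15209 genes, with a median log2 fold change of 2.29 beside −0.02 over all genes tested. In all 8 the CD4NIK libraries were above every CD4cre library, against 23% of genes. DESeq2 also called 8 members higher (9.47% of its genes). With the CD4IKK1 libraries added to edgeR's fit, *Gimap8* alone passed, and 865 of 16546 genes were called higher. Without CD4cre replicate 2 or 3 or without CD4NIK replicate 2 or 3, edgeR called 5 members, and *Gimap5*, *Gimap6* and *Gimap9* did not pass, while 614 to 884 genes in all were called higher.

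CD4IKK1 and CD4NIK were compared directly, because their comparisons with CD4cre share the same 3 control libraries. All 8 members passed edgeR's threshold as lower in CD4IKK1, against 18.5% of 16546 genes, and in all 8 no CD4IKK1 library reached the CD4NIK range, against 24.6% of genes. The log2 fold changes ran from −6.86 for *Gimap4* (standard error 1.43, FDR 0.00399) to −3.88 for *Gimap5* (standard error 0.71, FDR 0.00184), with a median of −4.95 beside 0.06 over all genes. Between them lay *Gimap3* at −5.72, *Gimap7* at −5.34, *Gimap8* at −5.05, *Gimap1* at −4.86, *Gimap6* at −4.78 and *Gimap9* at −4.49, with FDRs from 8.08e−05 (*Gimap8*) to 0.0168 (*Gimap9*) with edgeR. Without CD4IKK1 replicates 1 and 2, edgeR and DESeq2 each called 8 members lower (17.1% and 13.9% of their genes). Without CD4NIK replicate 3 the call of *Gimap9* was lost (FDR 0.0614 with edgeR). Without CD4IKK1 replicate 5 the log2 fold changes of *Gimap4* and *Gimap6* were −7.51 and −5.92, and without CD4IKK1 replicate 3 that of *Gimap7* was −6.31.

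**Figure D2:**
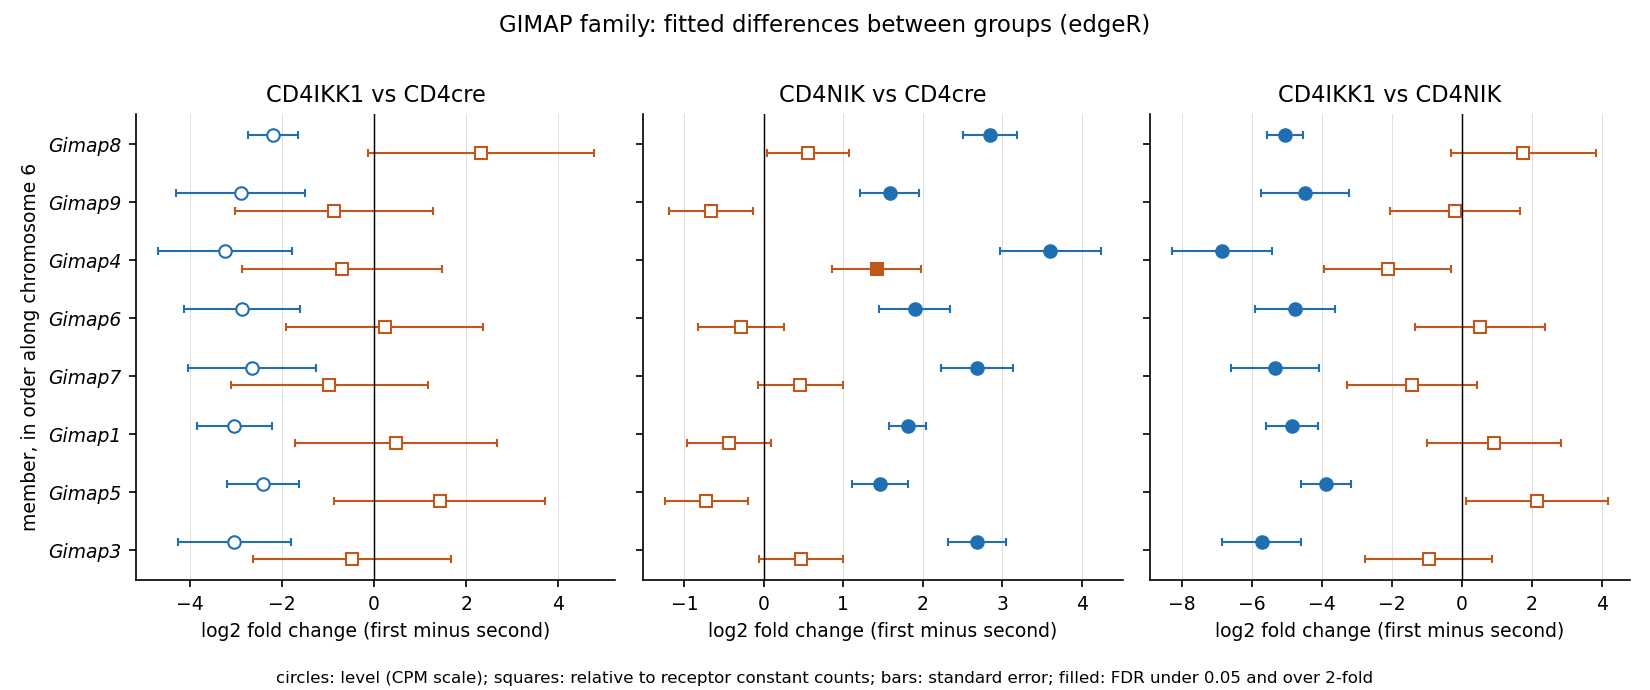
Log2 fold changes of the 8 members in the 3 comparisons, with circles for the level, squares for values relative to receptor counts, bars for 1 standard error and filled symbols for calls (FDR under 0.05 and more than 2-fold, edgeR). The circles lie below 0 for CD4IKK1 against both other groups and above 0 for CD4NIK against CD4cre, whereas the squares scatter on both sides of 0, with *Gimap4* in CD4NIK against CD4cre as the 1 filled square.

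Relative to the receptor counts, the ranges of the family in the 3 groups overlapped. There were 1.35, 1.06 and 1.07 GIMAP counts per receptor count in CD4cre, 1.42, 1.10 and 1.44 in CD4NIK and 3.22, 0.759, 0.291, 0.974 and 1.39 in CD4IKK1 replicates 1 to 5. The value of CD4IKK1 replicate 1 rests on 132 GIMAP and 41 receptor counts, with a 95% interval of 2.25 to 4.69 from exact binomial limits. CD4IKK1 replicate 3, with 11413 receptor counts, had the lowest value of the 11 libraries, with an interval of 0.280 to 0.302. The median gene shifted on this scale, by a log2 difference of 6.16 for CD4IKK1 against CD4cre, −2.33 for CD4NIK against CD4cre and 8.44 for CD4IKK1 against CD4NIK. Without CD4IKK1 replicate 1 the first and last of these were 2.84 and 5.14, and without replicates 1 and 2 they were 1.52 and 3.85.

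**Figure D3:**
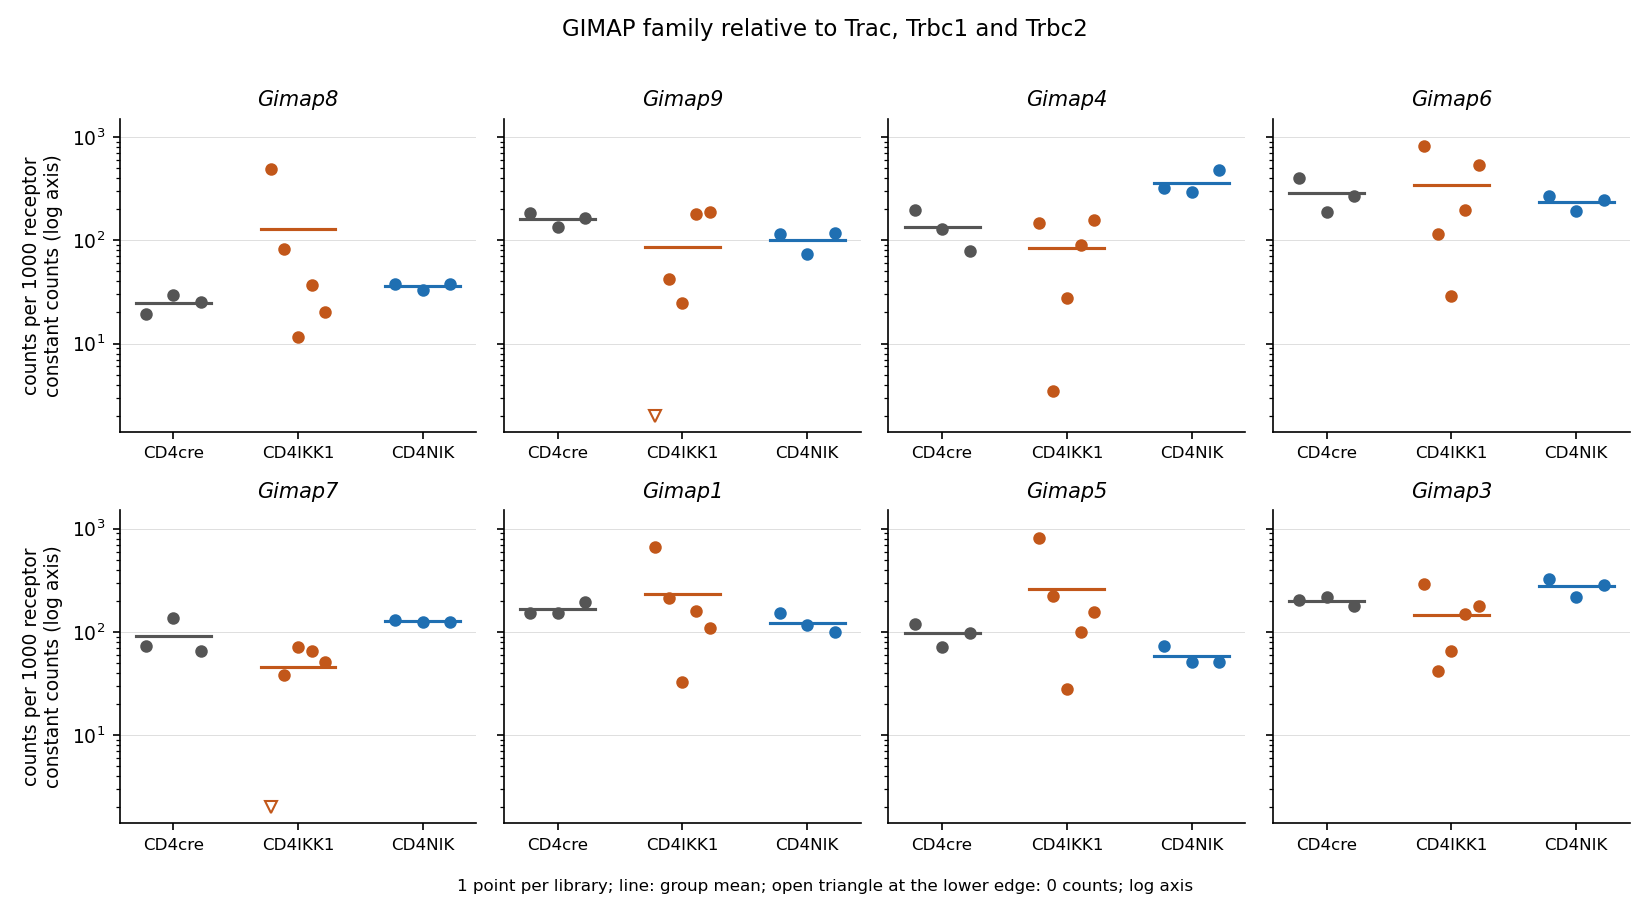
Counts of each member per 1000 receptor counts (*Trac*, *Trbc1* and *Trbc2* together) on a log axis, 1 panel per gene in chromosome order, with 1 point per library, the group mean as a line and an open triangle for 0 counts. CD4NIK and CD4cre do not overlap for *Gimap1*, *Gimap3*, *Gimap4*, *Gimap8* and *Gimap9*, with narrow margins for *Gimap1* and *Gimap3*. *Gimap4* is higher in the 3 CD4NIK libraries than in the other 8, and CD4IKK1 replicate 1 is the highest point of *Gimap1*, *Gimap5*, *Gimap6* and *Gimap8*.

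*Gimap4* was the member that edgeR called on this scale. It had 198, 129.7 and 78.6 counts per 1000 receptor counts in CD4cre, 146, 3.46, 27.4, 89.6 and 158 in CD4IKK1 and 318, 294 and 477 in CD4NIK. All 3 CD4NIK libraries were above all libraries of the other groups. edgeR, with receptor counts in place of library sizes, called *Gimap4* 2.68-fold higher in CD4NIK than in CD4cre (log2 fold change 1.42, standard error 0.56, FDR 0.0288), against 0.552% of genes called higher, and DESeq2 called it as well (0.389% of its genes). This call was not stable, being lost without CD4cre replicate 2 or 3, without CD4NIK replicate 2 or 3 and with the replicate number as a block. Against CD4NIK, the CD4IKK1 value was −2.12 on the log2 scale and did not pass (FDR 0.258), while without CD4IKK1 replicates 1 and 2 it passed at −1.99. The genes called lower were 0.29% with all libraries and 0.581% without those 2. An exact two-sided permutation test of the log2 ratios gave p = 0.1 for CD4NIK against CD4cre, the smallest that 3 against 3 libraries allow, and p = 0.0714 for CD4IKK1 against CD4NIK, both unadjusted among 24 such tests. The latter was 0.1 without CD4IKK1 replicates 1 and 2, the smallest possible there.

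The other 7 members were not called relative to receptor counts in any comparison. For CD4NIK against CD4cre their log2 differences ran from −0.72 (*Gimap5*) to 0.55 (*Gimap8*), with a median of 0.09 over the 8 members. *Gimap3* had 205, 215 and 177 counts per 1000 receptor counts in CD4cre and 325, 217 and 285 in CD4NIK, with every CD4NIK library higher. *Gimap8* had 19.2, 29.7 and 25.1 in CD4cre and 37.8, 32.8 and 37.7 in CD4NIK, again without overlap. Counts per receptor count were higher in every CD4NIK library than in every CD4cre library for these 2 genes and *Gimap4*, against 1.16% of genes. *Gimap1* had 152.1, 153 and 193 counts per 1000 receptor counts in CD4cre and 151.7, 116 and 99.3 in CD4NIK, and *Gimap9* had 184, 134 and 166 and 114, 73.5 and 117. Both were lower in every CD4NIK library than in every CD4cre library, as were 72.7% of genes, and for *Gimap1* the margin was narrow. An exact two-sided permutation test gave p = 0.1 for each of these 5 members, unadjusted and the smallest the design allows.

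For CD4IKK1 against CD4cre the differences relative to receptor counts ran from −0.97 (*Gimap7*) to 2.32 (*Gimap8*) with standard errors of 2.14 to 2.45, and edgeR called 0% of all genes. *Gimap5* had 120.0, 71.9 and 97.4 counts per 1000 receptor counts in CD4cre, 73.4, 51.3 and 50.7 in CD4NIK and 805, 224, 27.9, 98.7 and 156 in CD4IKK1, where replicate 1 was far above and replicate 3 below all CD4cre libraries. Without CD4IKK1 replicates 1 and 2 the log2 differences of the 8 members from CD4cre all lay between −0.73 (*Gimap1*) and −0.036 (*Gimap5*), and none was called (0.146% of genes were called lower). In that set *Gimap3* had 65.0 to 176.5 counts per 1000 receptor counts in CD4IKK1. All these libraries were below all CD4cre and all CD4NIK libraries (exact permutation p = 0.1 for each, the smallest possible). The lowest CD4cre library was close, at 177.3, and the share of all genes that did the same was not counted. *Gimap7* had 0, 38.0, 71.9, 65.6 and 51.2 counts per 1000 receptor counts in CD4IKK1 and 130.3, 123 and 125 in CD4NIK. No CD4IKK1 library reached the CD4NIK range (exact two-sided permutation p = 0.0357, unadjusted, with 0.0179 as the smallest possible, and p = 0.1 without CD4IKK1 replicates 1 and 2, the smallest possible there), and 0.852% of genes were lower without overlap in the same way. *Gimap6*, with 402, 190.1 and 270.2 counts per 1000 receptor counts in CD4cre, 829, 115, 29.0, 196 and 532 in CD4IKK1 and 269, 194 and 244 in CD4NIK, overlapped between all groups.

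The make-up of the family, given as each member's percent of the GIMAP counts of its library, needs no other gene as a scale. *Gimap4* made up 14.6, 12.2 and 7.33% in CD4cre, 4.55, 0.455, 9.44, 9.20 and 11.3% in CD4IKK1 and 22.4, 26.7 and 33.2% in CD4NIK. The CD4NIK libraries were above all others, by 16.1 percentage points in the mean against CD4cre (exact two-sided permutation p = 0.1) and by 20.4 points against CD4IKK1 (p = 0.0179), the smallest p each comparison allows. Without CD4IKK1 replicates 1 and 2 the CD4IKK1 and CD4NIK groups still did not overlap (exact permutation p = 0.1). *Gimap5* went the other way, with 8.87, 6.77 and 9.08% in CD4cre, 25.0, 29.4, 9.59, 10.1 and 11.2% in CD4IKK1 and 5.18, 4.65 and 3.53% in CD4NIK. All 3 groups were apart, with exact permutation p of 0.125 for CD4IKK1 against CD4cre, 0.1 for CD4NIK against CD4cre and 0.0714 for CD4IKK1 against CD4NIK. Without CD4IKK1 replicates 1 and 2 the groups stayed apart, each with an exact permutation p of 0.1.

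*Gimap1* and *Gimap9* also held smaller shares in every CD4NIK library than in every CD4cre library. *Gimap1* made up 11.2, 14.4 and 18.0% in CD4cre and 10.7, 10.5 and 6.92% in CD4NIK, and *Gimap9* made up 13.6, 12.6 and 15.5% and 8.04, 6.67 and 8.15% (exact two-sided permutation p = 0.1 for each). The share of *Gimap9* was also higher in CD4IKK1 replicates 3 to 5 than in all CD4NIK libraries (exact permutation p = 0.1 without CD4IKK1 replicates 1 and 2, and 0.732 with them). The share of *Gimap6* ranged from 9.98% to 38.2% within CD4IKK1, against 17.9% to 29.7% in CD4cre and 17.0% to 18.9% in CD4NIK. The shares of *Gimap3*, *Gimap6*, *Gimap7* and *Gimap8* overlapped between all pairs of groups. The 24 tests of shares are unadjusted, and the shares of a library sum to a fixed total, so that 1 member's gain is a loss to the others.

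**Figure D4:**
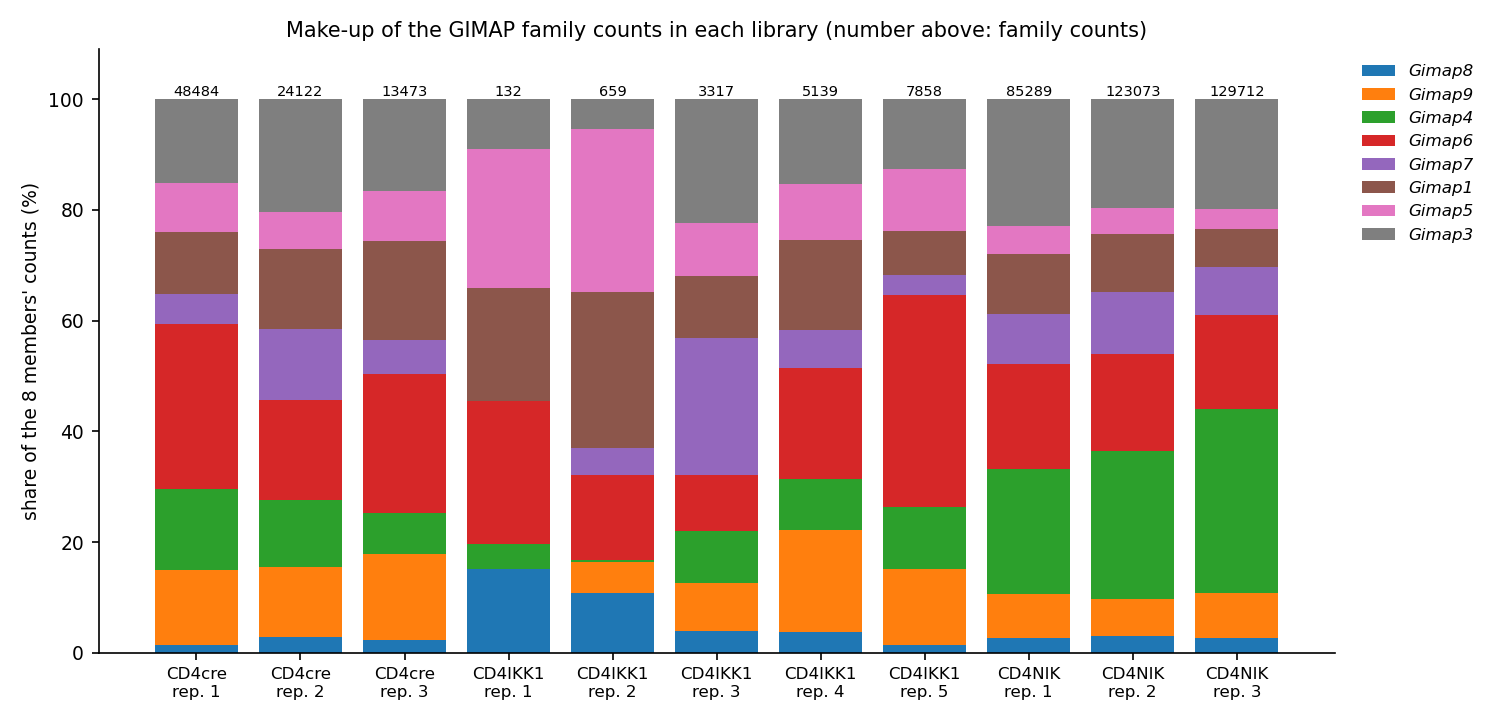
Percent of all GIMAP counts taken by each member in each of the 11 libraries, as stacked bars with the number of GIMAP counts above each bar. The *Gimap4* share is 22.4% to 33.2% in the CD4NIK libraries and at most 14.6% elsewhere, and the bars of CD4IKK1 replicates 1 and 2 rest on 132 and 659 counts.

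The genes whose levels followed the family most closely were sought among 16538 other genes by the correlation with the mean of the members' centred log2 CPM. Over the 11 libraries, which fall into 3 groups and differ in T cell transcripts, Pearson's r was 0.996 for *Cd40lg* (CD40 ligand, by which CD4+ T cells help other immune cells), 0.995 for *Cd3e* (a signalling chain of the T cell receptor complex), 0.994 for *4930523C07Rik*, 0.993 for *Lpxn* (an adaptor protein of blood cells) and 0.993 for *Hspa1b* (an inducible heat shock protein). *Cd40lg* had 23.1 to 48.5 CPM in CD4cre, 0.064 to 13.6 CPM in CD4IKK1 and 216 to 415 CPM in CD4NIK. These are descriptions across libraries of different groups and carry no p.

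The wider T cell genes were counted in the same fits. The 15 T cell identity genes, the receptor complex and its proximal kinases and adaptors among them, had 0 calls for CD4IKK1 against CD4cre (median log2 fold change −2.04), 11 higher calls for CD4NIK against CD4cre (median 1.86, beside 10.4% of all genes) and 13 lower calls for CD4IKK1 against CD4NIK (median −3.91, beside 18.5% of all genes). When CD4IKK1 replicates 1 and 2 were left out, edgeR called 1 of the 15 (*Cd2*, an adhesion receptor) lower than in CD4cre (0.239% of all genes), where DESeq2 called 4 (2.35%), and 14 lower than in CD4NIK (17.1%). Their summed level was 1204 to 1901 CPM in CD4cre, 217 to 1008 CPM in CD4IKK1 and 5449 to 6491 CPM in CD4NIK. *Lck*, the kinase that starts receptor signalling, was higher by 2.56 (standard error 0.28, FDR 0.00256) on the log2 scale in CD4NIK than in CD4cre with edgeR. *Thy1* was the member of this list that stood out, at 114 to 156 CPM in CD4cre, 154 to 202 CPM in CD4IKK1 and 106 to 144 CPM in CD4NIK, and was not called in any comparison of levels. It made up most of the lowest CD4IKK1 sum of 217 CPM, whereas the lowest CD4IKK1 values of *Lck*, *Lat* and *Cd2* were 1.92, 0.192 and 1.34 CPM.

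Genes of T cell survival and quiescence, the programme in which GIMAP proteins are placed, were counted next. Of 15 such genes 6 rose in CD4NIK against CD4cre with edgeR, beside 10.4% of all genes (median log2 fold change of the list 1.10). These were *Lef1* (3.26) and *Tcf7* (2.55), transcription factors of naive and memory T cells, *Slfn2* (2.42), needed for T cell quiescence, *S1pr1* (2.15), the receptor for exit from lymphoid tissue, *Btg1* (2.08), which restrains proliferation, and *Foxo1* (1.43), a transcription factor of resting T cells. *Il7r*, the receptor chain for the survival cytokine interleukin-7, differed by 1.21 (standard error 0.43, FDR 0.0757) and *Klf2*, a quiescence factor, by 0.68 (standard error 0.42, FDR 0.275), and neither passed with edgeR. DESeq2 called 8 of the 15 higher in CD4NIK, *Il7r* and *Btg2* in addition (9.47% of its genes). For CD4IKK1 against CD4cre no gene of the list passed with edgeR (median −2.18), where DESeq2 called 5 lower (2.16% of its genes). Against CD4NIK 14 of 15 were lower in CD4IKK1 with edgeR (median −3.80, beside 18.5% of all genes), the exception being *Tsc1*. Leaving out CD4IKK1 replicates 1 and 2 gave 0 and 14 calls with edgeR (0.239% and 17.1% of all genes) and 2 and 14 with DESeq2 (2.35% and 13.9%). Relative to receptor counts, 6 genes of this list were lower in CD4NIK than in CD4cre, *Foxp1* and *Klf2* among them, against 68.7% of all genes.

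The partner genes comprised Bcl-2 family members and proteins of the autophagy machinery that GIMAP proteins are known or thought to bind. Of the 11 tested between CD4NIK and CD4cre, *Bcl2l1* and *Mcl1*, both of which block apoptosis, rose with edgeR (10.4% of all genes were called higher), and the median log2 fold change of the list was 0.43. DESeq2 called *Bcl2* higher as well, 3 of 12 (9.47% of its genes). *Bcl2l1* was higher in CD4NIK by 2.56 (standard error 0.49, FDR 0.0145) and *Mcl1* by 1.95 (standard error 0.56, FDR 0.0418). Against CD4NIK, 7 of 12 were lower in CD4IKK1 with edgeR, beside 18.5% of all genes, among them *Mcl1* (−3.51), *Bcl2* (−3.18) and the pro-apoptotic *Bcl2l11* (−3.06). Between CD4IKK1 and CD4cre edgeR called none (median −0.74), while DESeq2 called *Bax*, which promotes apoptosis, *Bcl2* and *Bcl2l11* lower (2.16% of its genes). edgeR again called 7 against CD4NIK (17.1% of all genes) and 0 against CD4cre (0.239%) without CD4IKK1 replicates 1 and 2, and DESeq2 called 7 (13.9%) and 3 (2.35%). *Gabarapl2*, which encodes the partner of GIMAP6, was at 0.69 (standard error 0.12, FDR 0.000588) on the log2 scale in CD4IKK1 against CD4NIK, less than 2-fold and on the opposite side of 0 from *Gimap6*.

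Transcripts of other cell types differed between the groups as well. Markers of NK and CD8+ T cells summed to 12.7 to 42.7 CPM in CD4cre, 0.448 to 12.9 CPM in CD4IKK1 and 72.9 to 121 CPM in CD4NIK, with *Klra8* at 0 in every library and *Ncr1* at 0 in all CD4cre and CD4IKK1 libraries. Of these markers 1 of 6 was called higher in CD4NIK than in CD4cre (10.4% of all genes) and 4 of 6 lower in CD4IKK1 than in CD4NIK (18.5% of all genes), also without CD4IKK1 replicates 1 and 2. B cell markers summed to 3.50 to 8.71 CPM in CD4cre, 1.99 to 7.60 CPM in CD4IKK1 and 6.58 to 28.9 CPM in CD4NIK. Endothelial markers, of interest because such cells can express GIMAP genes, summed to 180 to 197 CPM in CD4cre, 195 to 240 CPM in CD4IKK1 and 104 to 130.0 CPM in CD4NIK, with *Cdh5* and *Tek* at 0 in all CD4cre and CD4NIK libraries. These markers did not move one way. *Plvap*, a protein of fenestrated endothelium, was called lower in CD4NIK than in CD4cre and, with *Egfl7*, a secreted endothelial protein, higher in CD4IKK1 than in CD4NIK with edgeR. *Pecam1*, an adhesion molecule of endothelial and blood cells, went in the direction of the GIMAP genes, with 9.01 to 16.8 CPM in CD4cre, 6.97 to 11.5 CPM in CD4IKK1 and 21.9 to 49.3 CPM in CD4NIK (called higher in CD4NIK than in CD4cre and lower in CD4IKK1 than in CD4NIK with edgeR). With CD4IKK1 replicates 1 and 2 left out, *Kdr*, a receptor of vascular growth factor, was also called lower and *Esam*, an endothelial adhesion molecule, higher in CD4IKK1 than in CD4NIK. Myeloid markers summed to 439 to 1842 CPM in CD4cre, 97.8 to 257 CPM in CD4IKK1 and 629 to 958 CPM in CD4NIK, with all CD4IKK1 libraries below the others. For CD4IKK1 against CD4cre edgeR called none of them (median log2 fold change −2.67) and DESeq2 called 5 of 12 lower (*C1qa*, *C1qb*, *C1qc*, *Csf1r* and *Lyz2*, 2.16% of its genes), also 5 when CD4IKK1 replicates 1 and 2 were left out. edgeR called 5 of 8 lower in CD4IKK1 than in CD4NIK (18.5% of all genes), and 4 when those libraries were left out (17.1%). Neural markers summed to 1643 to 2069 CPM in CD4cre, 1772 to 2396 CPM in CD4IKK1 and 493 to 1163 CPM in CD4NIK, and 5 of 9 were called lower in CD4NIK than in CD4cre, against 6.99% of all genes. Erythroid markers summed to 2081 to 2678 CPM in CD4cre, 533 to 1610 CPM in CD4IKK1 and 1190 to 8173 CPM in CD4NIK, and kidney tubule markers to 18.7 to 80.0 CPM, 4.87 to 11.1 CPM and 13.7 to 111 CPM. Both were thus lower in all CD4IKK1 than in all CD4cre libraries. DESeq2 called 4 of 5 erythroid markers lower in CD4IKK1 than in CD4cre (2.16% of its genes), where edgeR called none, and edgeR called 4 of 5 lower than in CD4NIK (18.5% of all genes). Each of these counts was 3 when CD4IKK1 replicates 1 and 2 were left out (2.35% and 17.1%). Platelet markers summed to 11.8 to 30.5 CPM in CD4cre, 3.40 to 20.4 CPM in CD4IKK1 and 7.09 to 15.7 CPM in CD4NIK. The part of these transcripts in the GIMAP differences was not tested.

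The neighbours of the cluster were examined to see whether the region moved as a block. Of the 18 further genes of the deposited table that are annotated within 150 kb on either side of the cluster or inside it, 11 were tested between CD4NIK and CD4cre, with a median log2 fold change of 0.23, and 3 were called, beside 10.4% of all genes higher and 6.99% lower. These were *Gm28053* (4.34) and *Tmem176a* (2.29), both higher in CD4NIK, and *Atp6v0e2* (−1.23), a subunit of the proton pump of acidic organelles, which was lower. *Gm28053*, which overlaps *Gimap7*, *Gimap1* and *Gimap5* and can share reads with them, had 4, 6 and 5 counts in CD4cre, 0, 0, 7, 0 and 7 counts in CD4IKK1 and 77, 91 and 82 counts in CD4NIK. Its values are therefore uncertain. In CD4NIK it had at most 91 counts per library, against at least 4414 for each of those 3 members. *Atp6v0e2* had 25346 to 27672 counts in CD4cre, 20770 to 32841 counts in CD4IKK1 and 4747 to 15218 counts in CD4NIK. None of the 9 neighbours tested between CD4IKK1 and CD4cre was called (median −0.09). Between CD4IKK1 and CD4NIK, *Gm28053*, *Tmem176b* and *Tmem176a* were lower and *Atp6v0e2* was higher in CD4IKK1, 4 of 11 tested, where 18.5% of all genes were lower and 14.8% higher. With CD4IKK1 replicates 1 and 2 left out, the same 3 genes were lower, *Rarres2*, which encodes the chemoattractant chemerin, joined *Atp6v0e2* on the higher side, and none was called between CD4IKK1 and CD4cre with edgeR or DESeq2.

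**Figure D5:**
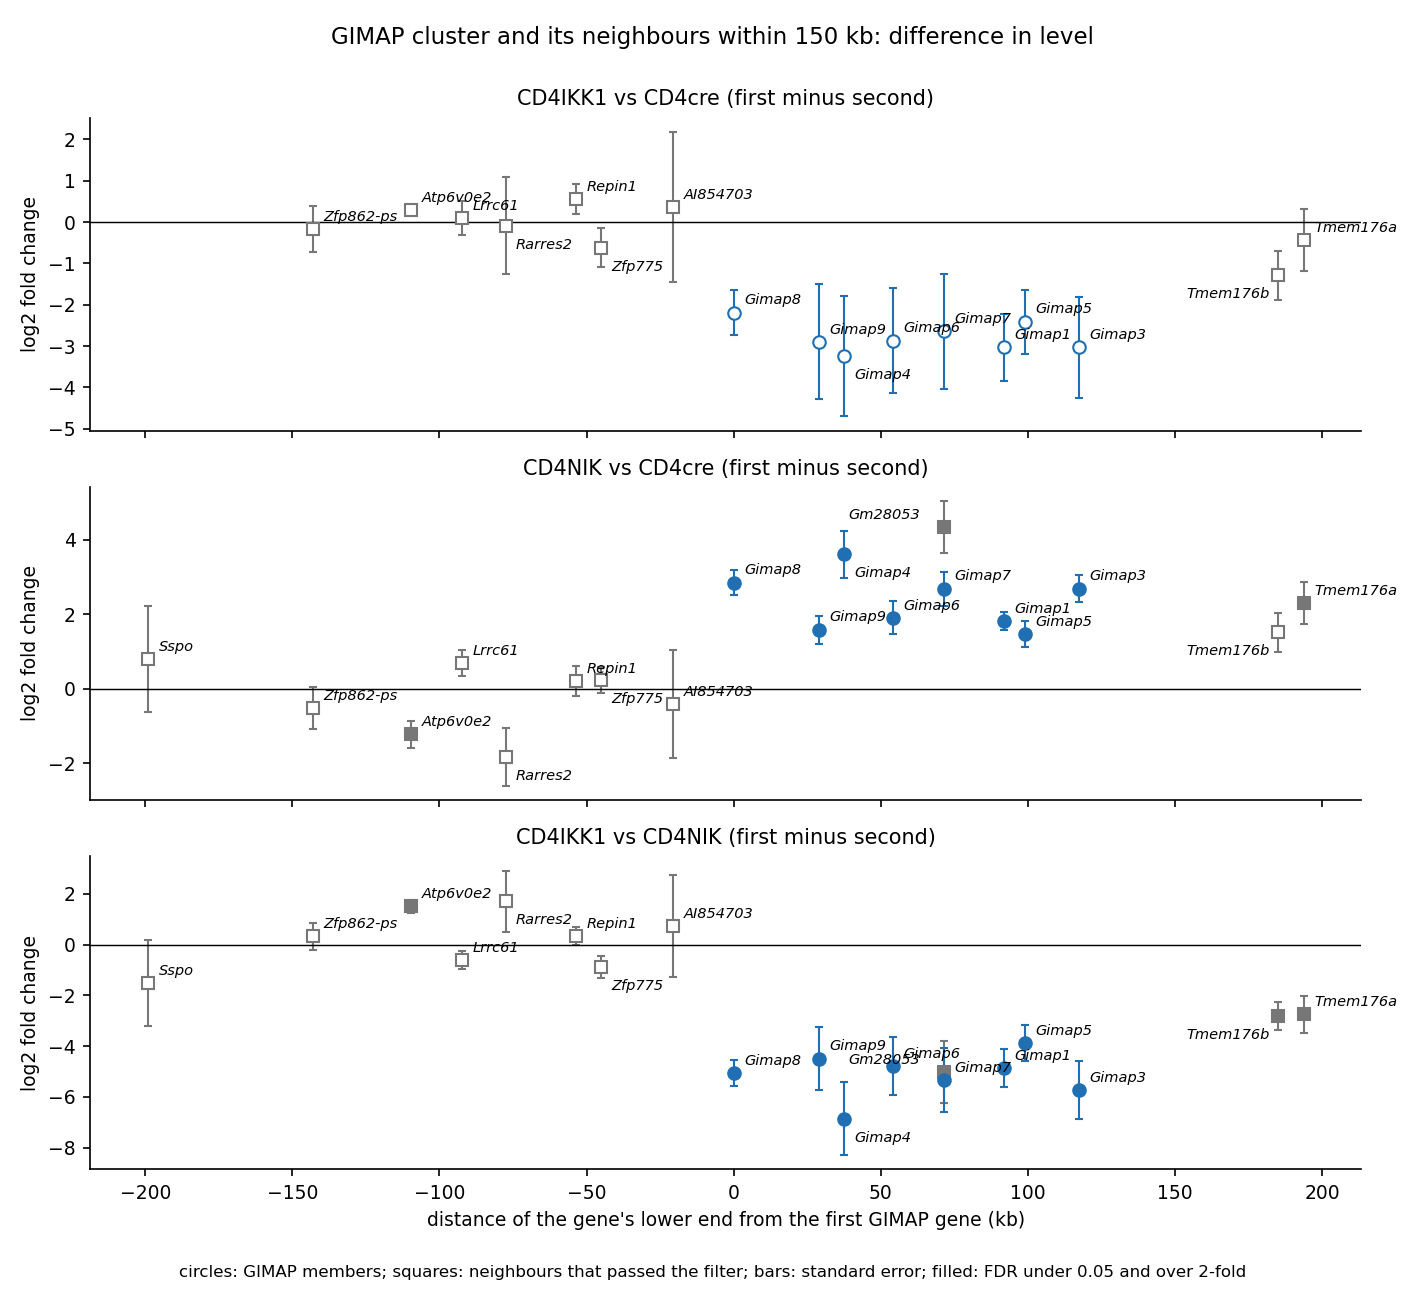
Log2 fold change against the distance in kb from the start of *Gimap8*, the first GIMAP gene on chromosome 6, with circles for the 8 members, squares for the tested neighbours within 150 kb and filled symbols for calls. In CD4NIK against CD4cre the 8 members lie at 1.46 to 3.61, while the neighbours lie on both sides of 0.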

How the data were processed

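The libraries of 3 CD4cre, 5 CD4IKK1 and 3 CD4NIK mice, all taken on day 2 after IRI, were grouped by their titles. The authors trimmed reads with Trimmomatic, assigned them with kallisto and deposited estimated counts per gene symbol, without normalization, for 35814 symbols. The version of kallisto is not given in the sources used here. The paper names GRCm39 and the labels mm10, and the table holds no coordinates. Positions, lengths and promoters were therefore taken from GENCODE release 39 on GRCm39 (33508 symbols matched). In each library 30.4% to 36.6% of the values had decimals, and all were rounded. No 2 of the 11 libraries had identical values. Total counts ran from 15751468 to 25736892, and the floor was 3 counts.

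After edgeR's expression filter and TMM normalization, the robust quasi-likelihood test of edgeR (4.0.16, R 4.3.3) was run with Benjamini-Hochberg adjustment over all genes tested. A call needed an FDR below 0.05 together with a difference of more than 2-fold. Comparisons with CD4cre used their own libraries, and CD4IKK1 against CD4NIK used all 11. Relative values used the summed *Trac*, *Trbc1* and *Trbc2* counts as library size. Single ratios (0.5 added to each count) and shares were compared by exact two-sided permutation over every split of the libraries in Python 3.11.15. The exact binomial limits were taken from scipy 1.17.1. The edgeR and DESeq2 fits were checked on simulated counts. The edgeR fit with a given denominator was checked only with denominators that followed library size, and the permutation tests were not simulated. Since the labels call the libraries biological replicates without naming animals, p-values measure the spread between these libraries.

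The members and gene lists were chosen with earlier results of these data known. Named are all members, the receptor and targeted genes, of each list the 3 members of highest mean CPM and those called in counts given in the text, and the 5 genes most like the family. Where a list is given by its range only, its members are not named, except markers at 0 and single called markers. These, the neighbours and *Thy1* were named after their values were seen. Some single genes that this rule would name are not reported here. The alternatives were DESeq2 (1.42.0), RLE, upper-quartile and no factors, 2 other filters, other libraries in the fit, a non-robust fit, the labels' replicate number as a block, other denominators (*Cd3d*, *Cd3e* and *Cd3g*; the T cell identity genes; *Ptprc*) and leaving out each library. Leaving out CD4IKK1 replicates 1 and 2 from the fits of levels, the list counts and the permutation tests was added after seeing the data. RefSeq proteins were not used here.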

Additional observations from a re-analysis of the deposited data

Results flagged for a closer look

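In groups of 4 to 10 libraries, a highest or lowest value was singled out when its gap to the next exceeded Dixon's critical value, which chance does in about 1 of 20 groups. Of 26 groups tested, 4 were. CD4IKK1 replicate 1, with 41 receptor counts, was the highest of 5 for *Gimap1* (659 counts per 1000 receptor counts, next value 213), *Gimap5* (805, next 224) and *Gimap8* (488, next 81.8). These 3 ratios rest on 27, 33 and 20 counts of the members. CD4IKK1 replicate 3 was the highest of 5 for the share of *Gimap7* in the family counts, at 24.8% beside a next value of 6.73%. This library had 821 *Gimap7* counts and, with 11413, the most receptor counts of its group.

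The differences of the 2 groups from CD4cre were unequal for all 8 members by edgeR's direct test of CD4IKK1 against CD4NIK, in which the CD4cre means cancel, beside 18.5% of all genes called lower. Receptor transcripts differed in the same direction, so that genotype and T cell RNA content cannot be told apart. The differences in level, as log2 fold changes, were −4.86 for *Gimap1*, −5.72 for *Gimap3*, −6.86 for *Gimap4*, −3.88 for *Gimap5*, −4.78 for *Gimap6*, −5.34 for *Gimap7*, −5.05 for *Gimap8* and −4.49 for *Gimap9*, and every CD4IKK1 library was below every CD4NIK library, as in 24.6% of all genes. Relative to receptor counts, the same difference was not called by edgeR for any of the 8.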

How the results depend on the processing

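Levels kept their direction in all 8 members and 3 comparisons under every alternative run, while their size and the number called varied. For CD4IKK1 against CD4cre the median of −2.88 was −2.19 without CD4IKK1 replicates 1 and 2 and −5.48 with the replicate number as a block, and leaving out 1 library moved *Gimap6* between −4.00 and −2.15, *Gimap4* between −3.89 and −2.55 and *Gimap7* between −3.61 and −2.18. For CD4IKK1 against CD4cre, where edgeR called 0, DESeq2 called 3. The filter of 10 counts in every library gave 1 of the 5 members it left, beside 156 of 10954 genes called lower. Without CD4IKK1 replicates 1 and 2, edgeR called 2 and DESeq2 called 6, while leaving out any 1 library left 0. For CD4NIK against CD4cre, with 8 called, all 11 libraries in the fit left 1 and leaving out 1 library 5 to 8. For CD4IKK1 against CD4NIK, with 8 called, the 10-count filter left 5 of the 5 members tested, beside 2334 of 10567 genes called lower. Leaving out 1 library there left 7 to 8, beside 2396 to 3080 genes. Over all genes, upper-quartile factors turned the calls for CD4NIK against CD4cre from 1063 lower and 1586 higher to 1717 and 1398, and those for CD4IKK1 against CD4NIK from 3068 and 2444 to 2575 and 3213, while library sizes alone gave 1438 and 1382 for the former.

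Relative values depended more on the denominator and on CD4IKK1 replicates 1 and 2. With the T cell identity genes as denominator, edgeR called 4 members lower in CD4IKK1 than in CD4cre (0.332% of all genes) and 5 lower than in CD4NIK (1.25%), and with *Ptprc* 1 (0.243%) and 2 (0.707%), where receptor counts gave 0. The identity genes include *Thy1*, which had 154 to 202 CPM in CD4IKK1, beside 217 to 1008 CPM for all 15 together. Relative to receptor counts, *Gimap4* was called against CD4NIK (1) without CD4IKK1 replicates 1 and 2. Leaving out 1 library gave 0 to 0 calls for CD4IKK1 against CD4cre, 0 to 1 for CD4NIK against CD4cre and 0 to 1 for CD4IKK1 against CD4NIK, the 1 without CD4IKK1 replicate 1. The following log2 differences changed sign. For CD4IKK1 against CD4cre, *Gimap1* was −0.28 with the CD3 genes, −1.46 with the identity genes, −1.45 with *Ptprc* and −0.73 without both libraries. *Gimap6* was −0.29, −1.21, −1.46 and −0.19 in the same order. With the identity genes, *Ptprc* and without both libraries, *Gimap5* was −0.73, −0.75 and −0.036 and *Gimap8* −0.55, −0.37 and −0.11. For CD4NIK against CD4cre, *Gimap6* was 0.025 with the identity genes. For CD4IKK1 against CD4NIK, *Gimap1* was −1.34, −0.95 and −0.29 and *Gimap8* −1.45, −0.91 and −0.66 in that order, *Gimap5* was −0.30 with the identity genes, *Gimap6* −1.23 with them and −1.08 with *Ptprc*, and *Gimap9* 0.37 without both libraries. Leaving out 1 library also changed the sign, with ranges of −0.37 to 0.76 (*Gimap1*) and −0.40 to 0.55 (*Gimap6*) for CD4IKK1 against CD4cre, −0.51 to 0.033 (*Gimap6*) for CD4NIK against CD4cre, and −0.11 to 0.82 (*Gimap6*) and −0.67 to 0.10 (*Gimap9*) for CD4IKK1 against CD4NIK. The cause was not tested.

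With the replicate number as a block, 5 members were called higher for CD4NIK against CD4cre, beside 995 of 15209 genes. For CD4IKK1 against CD4NIK 7 were called lower, beside 2801 of 16546 genes. Relative to receptor counts the block left 0 for CD4NIK against CD4cre, and *Gimap6* was −0.93 for CD4IKK1 against CD4cre and −0.40 for CD4IKK1 against CD4NIK. Libraries with the same number did not deviate together (correlations from −0.089 to 0.077). With so few libraries per group, these values cannot show whether such libraries share a batch.

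Few counts limit the values of CD4IKK1 replicates 1 and 2, whose total counts lay within the range of the other libraries. They held 132 and 659 GIMAP counts, and a ratio to 41 receptor counts moves widely with few counts. The 5 against 3 libraries allow an exact permutation p no lower than 0.0179, and 3 against 3 no lower than 0.1. The deposited counts do not resolve transcripts or exons.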

Other observations

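*Ptprc*, which encodes CD45 and marks all nucleated blood cells, gives a further scale for the family that does not depend on the receptor genes. There were 7.56, 4.81 and 5.45 GIMAP counts per *Ptprc* count in CD4cre, 0.444, 1.22, 2.44, 3.17 and 4.00 in CD4IKK1 replicates 1 to 5 and 4.98, 6.86 and 7.61 in CD4NIK. All CD4IKK1 libraries were below the other 2 groups, and CD4cre and CD4NIK overlapped. On this scale CD4IKK1 replicate 1 was the lowest of the 11 libraries, whereas per receptor count it was the highest. Within the CD4IKK1 group the receptor and GIMAP counts did not follow the same order, since replicate 3 had the most receptor counts (11413) and replicate 5 the most GIMAP counts (7858). These values were looked at after the others were known, were not tested as a set, and carry no explanation here.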
